A study of Mus musculus with 16 samples.

Results

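The genes described are 44 mouse genes of the cell division cycle, fixed by name, of which 24 act in DNA replication, 3 in G1 and 17 in mitosis. On the arrays 38 of the 44 had a probe, out of 16593 named genes in all, and Gins2, Rfc3, Cdk4, Ccnb1, Mki67 and Aurkb had none. Where several probes measured a gene, the brightest over all 16 samples (highest mean log2 intensity) was used. Of the 38, 34 lay in the brighter 50% of probes and were tested: 22 replication genes, 2 G1 genes and 10 mitosis genes. The other 4, Ccna2, Ccnb2, Bub1 and Ube2c, all of the mitosis class, had a mean log2 intensity below 6.82 and are given as values without a test. Genes were put in a class by their textbook role, and no difference between groups is part of the rule. The members were, however, chosen with earlier results of these data known.

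Illumina bead arrays were hybridised with total RNA of the whole colon of C57Bl/6J males, with 4 samples of untreated mice (control), 6 of mice given dextran sulfate sodium (DSS) and 6 of mice given DSS and methylthioadenosine (MTA). DSS is a sulfated polysaccharide that damages the lining of the colon, and MTA is a nucleoside by-product of polyamine synthesis. The labels name no agent or allele shared by the 3 groups, and dose, days of treatment and age are not stated there. Whether every sample is a different animal is not stated either, so p-values measure the spread between these samples. In a whole tissue, fewer cells of a type and less RNA per cell cannot be told apart.

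Before a cell copies its DNA, Cdc6 and Cdt1 load the ring-shaped MCM helicase onto origins of replication in G1, a step called licensing. In S phase the helicase is activated with Cdc45 and the GINS complex, the clamp loader (RFC) places the sliding clamp Pcna behind it, and enzymes of deoxynucleotide synthesis supply the building blocks. The cell then enters mitosis with Cdk1 and its B-type cyclins, and spindle, centromere and checkpoint proteins part the chromosomes. In the colon, division takes place mainly in the lower part of the crypts, with further dividing cells among immune and stromal cells. Many replication genes are controlled through E2F sites in their promoters, and many mitosis genes through the cell cycle genes homology region (CHR) together with CCAAT boxes.

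The promoters of 38 of the 44 genes were found in RefSeq's table for mouse build GRCm38.p6, and the 250 bases before each listed gene start were searched on both strands. A gene was counted if any of its promoters matched. Among replication genes Mcm7, Fen1 and Uhrf1 had 2 promoters and Dnmt1 had 3, while each mitosis gene found had 1, so the classes were not searched equally. The E2F motif was taken as TTTCCCGC, TTTCGCGC, TTTGCCGC or TTTGGCGC, whose matches can overlap on opposite strands, the CHR as TTTGAA and the CCAAT box as CCAAT. An E2F motif was present for 8 of 22 replication genes (36.4%, 95% exact Clopper-Pearson interval 17.2% to 59.3%) and for 1 of 14 mitosis genes (7.14%, interval 0.181% to 33.9%). Over all 27025 genes of the table the share was 2.16%. The CHR letters were present for 7 of 14 mitosis genes (50%, interval 23.0% to 77.0%) and 4 of 22 replication genes (18.2%), against 18.3% of all genes. A CCAAT box was present for 13 of 14 mitosis genes (92.9%) and 13 of 22 replication genes (59.1%), against 37.5% of all genes. On the gene's own strand alone the E2F shares were 18.2% and 7.14% for replication and mitosis genes, against 1.12% of all genes. The CHR shares were 9.09% and 35.7%, against 10.3%, and the CCAAT shares 27.3% and 64.3%, against 21.5%. A match describes the letters of these windows and is not evidence that a factor binds there.

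Of the genes whose promoters are printed next, only Mcm5 passed a test described further on. Stretches of 80 bases before the start of 2 replication and 3 mitosis genes are shown as examples that hold these letters. They are written 5′ to 3′ on the gene's strand, with the E2F motif in capitals for the MCM subunits Mcm5 (chr8:75109324-75109403, plus strand) and Mcm6 (chr1:128359709-128359788, minus strand). In Mcm5 the capitals cover 2 overlapping matches, 1 on each strand.
Mcm5: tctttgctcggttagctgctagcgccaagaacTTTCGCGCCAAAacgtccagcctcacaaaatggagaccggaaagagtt
Mcm6: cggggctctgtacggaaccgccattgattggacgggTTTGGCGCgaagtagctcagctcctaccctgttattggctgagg

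The CHR letters, or their reverse complement, are in capitals for the mitotic kinase Cdk1 (chr10:69352913-69352992, minus strand), the anaphase activator Cdc20 (chr4:118437344-118437423, minus strand) and the spindle motor Kif11 (chr19:37376302-37376381, plus strand). Cdk1 held 2 matches in this stretch, and it was also the mitosis gene with an E2F motif, 131 bases before its start.
Cdk1: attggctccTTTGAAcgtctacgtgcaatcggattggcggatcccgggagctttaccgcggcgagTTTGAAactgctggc
Cdc20: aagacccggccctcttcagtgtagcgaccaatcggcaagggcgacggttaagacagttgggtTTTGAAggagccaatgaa
Kif11: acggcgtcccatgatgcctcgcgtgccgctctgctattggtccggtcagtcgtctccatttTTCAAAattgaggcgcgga

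The deposited intensities had been normalised between arrays, and the array medians were 112.012 to 112.22. Correlations between arrays of a group ran from 0.910 to 0.991, and the number of arrays limits the precision. The colon epithelial genes Lgals4, Krt8 and Tspan8 were measured in the controls at mean log2 intensities of 14.75, 14.78 and 13.41, far above the array medians.

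Replication genes were lower in the colons of DSS-treated mice than in controls. All 22 tested had a negative log2 fold change, with a median of -0.71 and a range of -1.29 to -0.22, and 9 of them (40.9%) fell by limma's test at an adjusted p under 0.05, among them the helicase subunit Mcm5, the licensing factor Cdt1 and the sliding clamp Pcna. Over all 9770 features tested, 5.89% fell and the median was -0.04. No mitosis gene passed the test: 9 of 10 had a negative value, with a median of -0.29 and a range of -0.58 to 0.09. An unadjusted limma p under 0.05 was found for 0 mitosis genes and for 16 of the 22 replication genes, all lower. Of all 9770 features, 1570 were lower and 1500 higher at that level. For 9 replication genes (40.9%) all 6 DSS samples lay below all 4 controls, against 6.89% of all features (8.98% had all DSS samples above the controls), and for 0 of the 10 mitosis genes.

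Of the 8 licensing genes, 4 fell. Mcm5, a subunit of the MCM helicase, had log2 intensities of 10.85, 11.37, 11.13 and 10.90 in controls, and 8.90 at lowest, 9.76 at the median and 10.77 at highest with DSS. The highest DSS sample, replicate 3, stood just below the lowest control, and the fall was -1.29 ± 0.41 (SE, limma adjusted p = 0.0462), or 2.44-fold. The call was lost in 5 of 12 alternative fits, among them those without a filter on dim probes and with accession order as a block. Cdt1, which brings the helicase to origins, was nearly constant in controls at 10.48, 10.49, 10.58 and 10.44. With DSS it ran from 8.82 through a median of 9.58 to 10.28, again without overlap, a fall of -1.0 ± 0.32 (adjusted p = 0.0468). Cdc6, the other loading factor, stood at 8.33, 8.14, 8.20 and 8.20 in controls and at 7.13 to 8.03 with DSS (median 7.53), a fall of -0.69 ± 0.22 (adjusted p = 0.0436). Mcm3, a further helicase subunit, stood at 7.89, 7.67, 7.57 and 7.75 in controls and at 6.65 to 7.36 with DSS (median 7.05), a fall of -0.72 ± 0.23 (adjusted p = 0.0460). In both genes the highest DSS sample was below the lowest control.

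The remaining 4 MCM subunits missed the threshold. Mcm6 also had groups that did not overlap, 10.68, 10.93, 10.71 and 10.90 in controls against 9.14 to 10.41 with DSS (median 9.86), with a log2 fold change of -1.04 ± 0.35 (adjusted p = 0.0575). Mcm2 had -0.93 ± 0.33 (adjusted p = 0.0725), Mcm7 -0.57 ± 0.30 (adjusted p = 0.208) and Mcm4 -0.46 ± 0.23 (adjusted p = 0.178). In each of these 3, DSS replicate 3 lay within the range of the controls and the other 5 DSS samples lay below it.

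Among the genes of the replication fork 3 of the 6 tested fell. Pcna, the sliding clamp that holds polymerases on DNA, had the smallest adjusted p of all members. It stood at 8.0, 7.85, 8.23 and 8.15 in controls and at 7.07 to 7.60 with DSS (median 7.51), and all DSS samples lay below all controls (-0.64 ± 0.17, adjusted p = 0.0183). The clamp loader subunit Rfc4 stood at 8.90, 9.38, 9.32 and 9.33 in controls and at 7.85 to 8.92 with DSS (median 8.38). Its highest DSS sample just passed the lowest control, replicate 1, which stood apart from the other controls, and the fall was -0.90 ± 0.26 (adjusted p = 0.0278). Rpa2, a subunit of the protein that coats single-stranded DNA, fell by 0.55 on the log2 scale (SE 0.17, adjusted p = 0.0436), from 8.18, 7.99, 8.06 and 7.72 in controls to 7.02 to 7.69 with DSS (median 7.52). Its other kept probe had -0.41, and with the mean of its probes the call was lost (-0.48, adjusted p = 0.0794). The helicase activator Cdc45 (-0.73 ± 0.25, adjusted p = 0.0641), the clamp loader subunit Rfc5 (-0.65 ± 0.26, adjusted p = 0.0947) and the flap nuclease Fen1 (-0.57 ± 0.28, adjusted p = 0.179) did not pass.

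Of the 5 genes of nucleotide supply, 2 fell. Tyms, thymidylate synthase, makes the nucleotide particular to DNA, and stood at 9.82, 9.98, 10.17 and 10.08 in controls against 8.42 to 9.63 with DSS (median 9.13), without overlap (-0.89 ± 0.27, adjusted p = 0.0386). It had 4 kept probes whose DSS differences, all negative, were -0.89, -0.92, -0.06 and -0.13, so the size rests on the probe chosen. Their mean log2 intensities were 9.47, 7.75, 7.0 and 6.92, the last 2 close to the filter's limit of 6.82. Dut, which removes dUTP so that uracil is not built into DNA, stood at 7.89, 7.88, 7.78 and 7.70 in controls and at 6.84 to 7.66 with DSS (median 7.10), without overlap (-0.63 ± 0.18, adjusted p = 0.0253). The large subunit of ribonucleotide reductase, Rrm1, missed the threshold at -0.76 ± 0.25 (adjusted p = 0.0510), while its small subunit, Rrm2, had the value nearest to 0 of all replication genes, -0.22 ± 0.28 (adjusted p = 0.615). Thymidine kinase, Tk1, had -0.86 ± 0.42 (adjusted p = 0.177), with probes at -0.86 and -0.28 whose mean log2 intensities were 8.47 and 7.13.

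None of the 3 genes that carry DNA methylation and chromatin through replication passed. Uhrf1, which recognises newly copied, hemimethylated DNA and recruits the methyltransferase Dnmt1, had the second largest difference of the members, -1.21 ± 0.53 (adjusted p = 0.137). Its controls stood at 11.20, 11.34, 11.25 and 11.48, and the DSS samples at 10.42, 8.90, 11.34, 10.27, 10.46 and 9.28 for replicates 1 to 6. DSS replicate 3 was thus at the level of controls and replicates 2 and 6 were the lowest. Dnmt1 had -0.51 ± 0.19 (adjusted p = 0.0868) and Cdca7, a partner of the remodeller Hells, -0.68 ± 0.36 (adjusted p = 0.214).

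The 2 G1 cyclins also missed the threshold. Cyclin D1, Ccnd1, a target of growth and Wnt signals, stood at 11.73, 11.95, 11.62 and 11.64 in controls and at 11.30 to 12.79 with DSS (median 11.89), a difference of 0.29 ± 0.33 (adjusted p = 0.559). Its 3 kept probes had DSS differences of 0.29, 0.33 and 0.61, and -0.06, -0.11 and 0.11 for DSS with MTA minus DSS. Cyclin E1, Ccne1, which acts with Cdk2 at S phase entry, stood at 7.44, 7.26, 7.35 and 7.20 in controls and at 6.95 to 7.40 with DSS (median 7.12), a difference of -0.16 ± 0.11 (adjusted p = 0.315). Both groups overlapped in either gene.

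**Figure D1:**
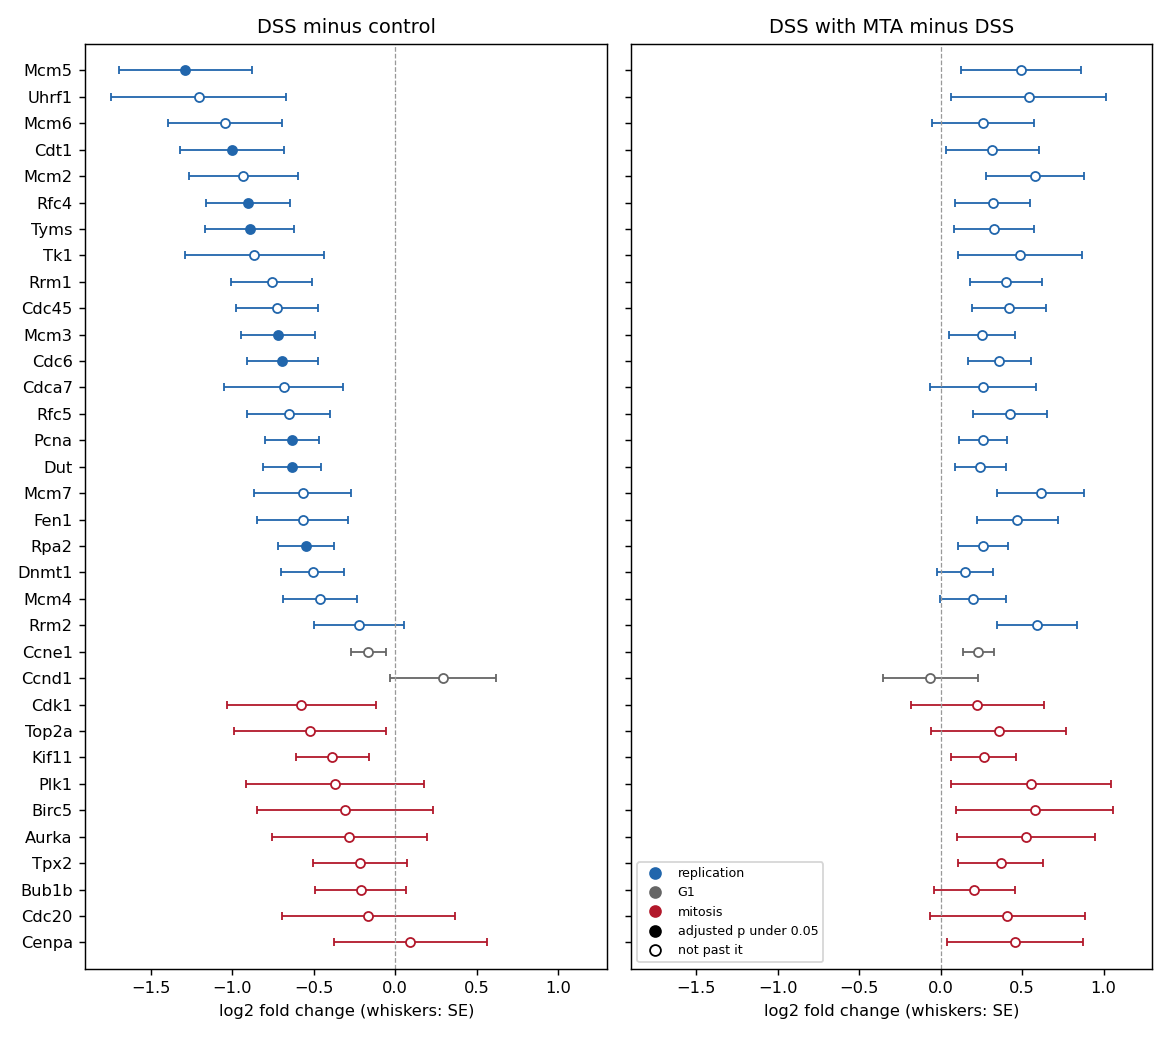
Log2 fold changes (points) and their standard errors (whiskers) for the 34 tested genes, DSS minus control on the left and DSS with MTA minus DSS on the right, with filled points for an adjusted p under 0.05. On the left all 22 replication genes lie below 0 and 9 are filled. On the right no point is filled, and all but Ccnd1 lie above 0.

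The mitosis genes had smaller differences and wider spreads. Cdk1, the kinase that starts mitosis, had the largest, -0.58 ± 0.46 (adjusted p = 0.409), from 8.84, 8.76, 8.83 and 8.24 in controls against 7.48 to 8.91 with DSS (median 8.11). Plk1, a kinase of spindle assembly, stood at 9.40, 9.34, 9.82 and 8.71 in controls and at 8.13 to 10.04 with DSS (median 9.06), a difference of -0.37 ± 0.55 (adjusted p = 0.673). In both genes the DSS samples reached from below the lowest control to above the highest. Cenpa, the histone of centromeres, had 10.17, 10.22, 10.69 and 9.68 in controls and 9.31 to 11.42 with DSS (median 10.30), a difference of 0.09 ± 0.47 (adjusted p = 0.913).

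The other mitosis genes lay between these values. Topoisomerase Top2a, which untangles sister chromatids, had -0.52 ± 0.47, the motor Kif11 -0.38 ± 0.22, and Birc5, of the chromosomal passenger complex, -0.31 ± 0.54. Aurka, a kinase of the spindle poles, had -0.28 ± 0.47, its activator Tpx2 -0.22 ± 0.29, the checkpoint kinase Bub1b -0.21 ± 0.28 and Cdc20, which starts anaphase, -0.16 ± 0.53. Of the 4 dim genes, Ccna2, the S and G2 cyclin, had 5.97 to 6.25 in controls and 5.83 to 6.39 with DSS. With all probes tested, 0 of the 4 passed by limma in any comparison, with adjusted p-values of 0.421 to 0.978.

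Set side by side in each sample, the class means differed in level and in spread. The mean over the 22 replication genes, as a log2 difference from the control mean, was -0.02, 0.06, 0.02 and -0.06 in controls. With DSS it was -0.58, -1.23, -0.08, -0.74, -0.68 and -1.18 in replicates 1 to 6, a mean of -0.75 ± 0.42 (SD, n = 6). All 6 lay below the lowest control, replicate 3 by little. The mean over the 10 mitosis genes was 0.05, 0.03, 0.38 and -0.46 in controls and -0.20, -0.93, 0.60, -0.29, -0.12 and -0.83 with DSS, a mean of -0.29 ± 0.55 (SD, n = 6). Here the DSS samples lay on both sides of the controls.

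The replication mean was below the mitosis mean in 6 of 6 DSS samples, by 0.30 to 0.68, with a mean difference of -0.46 ± 0.15 (SD, n = 6). In controls this difference ran from -0.36 to 0.40, with an SD of 0.31 (n = 4), so DSS replicates 2 and 6 were inside the range of controls and the other 4 below it. Since the genes were chosen with results known, the difference between the classes was not tested.

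**Figure D2:**
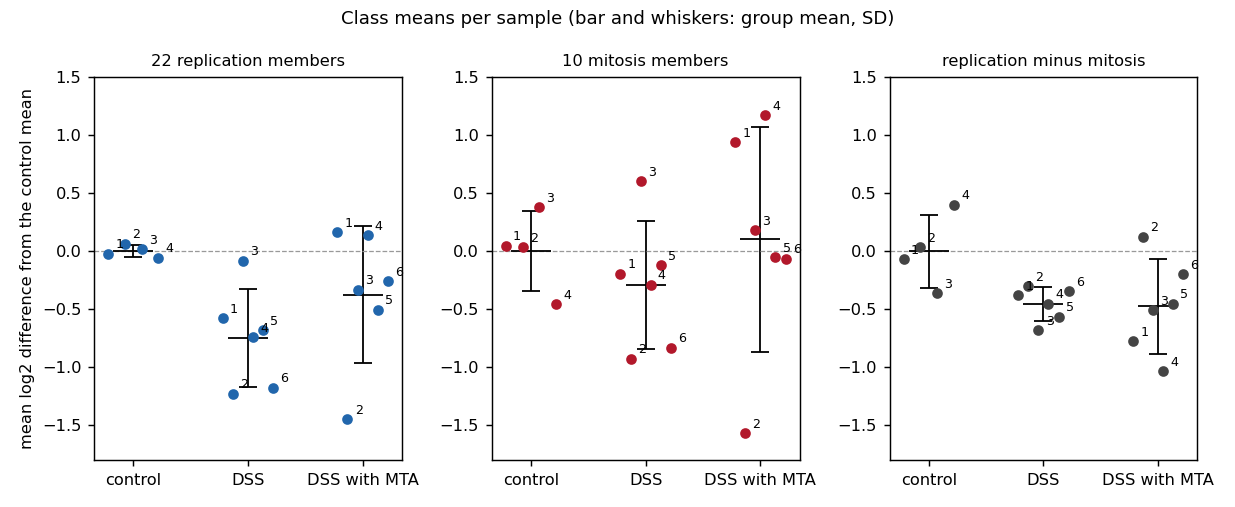
Mean log2 difference from the control mean in each sample over the 22 replication genes, over the 10 mitosis genes, and the first minus the second, with numbers giving the replicate and bars and whiskers the group mean and SD. The controls of the replication panel lie between -0.06 and 0.06 and all DSS samples lie below them, while in the mitosis panel the groups overlap.

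The samples of a group kept nearly the same order from gene to gene. DSS replicate 3 was the highest DSS sample in 22 of 22 replication genes and 10 of 10 mitosis genes. The lowest DSS sample was replicate 2 in 13 replication genes and 7 mitosis genes, and replicate 6 in the other 9 and 3. In the MTA group, replicate 2 was the lowest sample in all 22 and all 10, and the highest was replicate 1 in 14 replication genes and replicate 4 in 9 mitosis genes. Among controls, replicate 4 was the lowest in 10 of 10 mitosis genes and replicate 3 the highest in 9, while in the replication genes no control was lowest in more than 10 of 22.

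**Figure D3:**
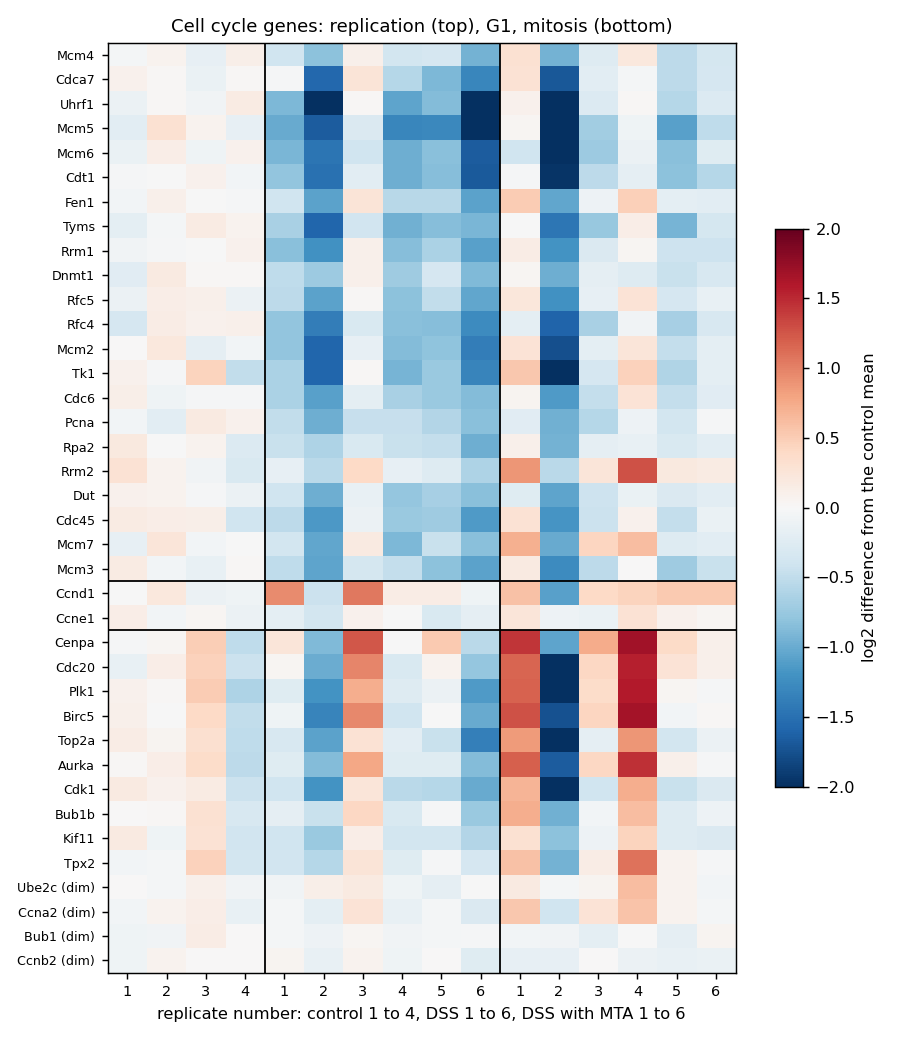
Log2 difference from the control mean for the 38 genes with a probe (rows, replication at the top, then G1, then mitosis, each by mean level) in the 16 samples (columns), with colours held at 2 in either direction. DSS replicates 2 and 6 and DSS with MTA replicate 2 are blue through nearly all tested genes, and DSS with MTA replicates 1 and 4 are red in the 10 tested mitosis genes.

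The spread within groups also differed between the classes. The median SD of a replication gene was 0.142 in controls, 0.408 with DSS and 0.560 with DSS and MTA. For a mitosis gene it was 0.363, 0.603 and 1.10, and for all features 0.157, 0.213 and 0.215. In controls the replication genes were thus about as steady as other features, and the mitosis genes were less so.

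**Figure D4:**
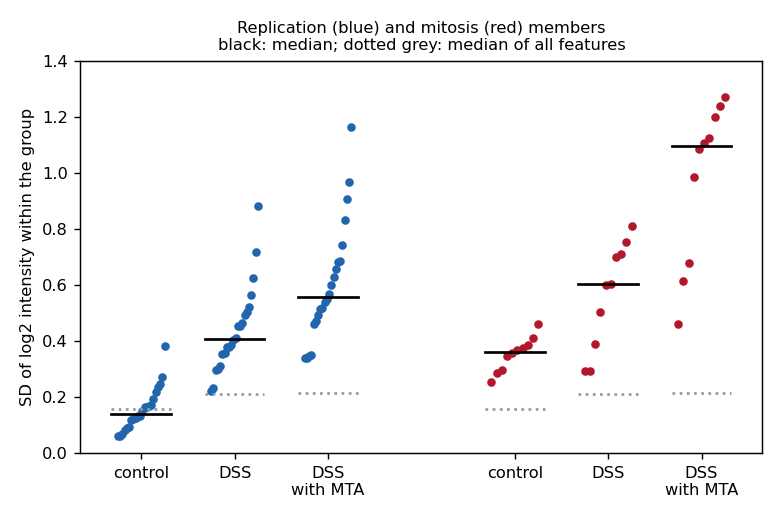
SD of the log2 intensity within each group for each of the 22 replication genes (blue) and 10 mitosis genes (red), with the median of the class as a black line and the median of all 9770 features as a dotted grey line. The replication genes of controls lie around the grey line, the other groups above it, and the MTA group has the highest median of both classes.

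Adding MTA to DSS changed no member by the test. All 22 replication genes and all 10 mitosis genes had a higher mean with DSS and MTA than with DSS, with medians of 0.35 (0.15 to 0.61) and 0.39 (0.21 to 0.58), and 0 passed. Over all features 0.0614% rose and 0.317% fell, with a median of 0.01. No member's groups lay apart, against 0.502% of features apart with lower and 0.409% with higher values. An unadjusted p under 0.05 was found for 2 replication genes, Ccne1 and 0 mitosis genes, against 635 features higher and 826 lower of 9770. The DSS samples enter both this comparison and the one with controls, so a positive value here is favoured for a gene that was low with DSS.

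The largest differences were in Mcm7 and Rrm2. Mcm7, a helicase subunit, stood at 7.39, 7.80, 7.50 and 7.55 in controls, at 6.51 to 7.74 with DSS (median 6.92) and at 6.56 to 8.26 with DSS and MTA (median 7.67). The difference from DSS was 0.61 ± 0.27 (adjusted p = 0.301). Rrm2 stood at 7.83, 7.60, 7.46 and 7.23 in controls, at 6.92 to 7.93 with DSS (median 7.32) and at 7.0 to 8.80 with DSS and MTA (median 7.75), with 0.59 ± 0.25 (adjusted p = 0.289). In both genes 5 of 6 MTA samples lay above the DSS mean and replicate 2 below it. Cyclin E1 was above the DSS mean in 6 of 6 MTA samples, by 0.23 ± 0.10 (adjusted p = 0.286).

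The genes that fell with DSS did not pass the test between DSS with MTA and DSS alone. Mcm5 had 8.61 to 11.11 with DSS and MTA (median 10.46), and differed from DSS by 0.49 ± 0.37 (adjusted p = 0.525). Pcna had 7.10 to 8.03 (median 7.76) and differed by 0.26 ± 0.15 (adjusted p = 0.406). Cdt1 had 8.54 to 10.47 (median 9.95) and differed by 0.32 ± 0.29 (adjusted p = 0.605). In all 3, replicate 2 of the MTA group was lower than nearly every DSS sample, and the other 5 were at or above the DSS mean.

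Among the mitosis genes Birc5 (0.58 ± 0.48, adjusted p = 0.575), Plk1 (0.56 ± 0.49, adjusted p = 0.596) and Aurka (0.53 ± 0.42, adjusted p = 0.558) had the largest values. Plk1 ran from 7.27 to 10.91 with MTA (median 9.52), wider than in either other group. Its lowest sample was replicate 2 and its highest replicate 4. The size of the class medians against DSS depended on single samples, though no gene of either class turned negative when 1 sample was left out. Without MTA replicate 2 they were 0.57 for replication and 0.76 for mitosis genes, and without MTA replicate 4 they were 0.24 and 0.17. The mitosis median was 0.25 without MTA replicate 1 or without DSS replicate 2. With epithelial markers as a covariate the medians were 0.22 and 0.18. In none of these fits did a replication or mitosis gene pass.

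Against controls, DSS with MTA left 20 of 22 replication genes with negative values and a median of -0.37 (-0.79 to 0.37), and 0 passed. Over all features 4.59% passed, 1.69% lower and 2.9% higher, with a median of -0.02. Unadjusted limma p-values under 0.05 were found for 5 of the 22 replication genes, all lower, against 1044 features lower and 973 higher of 9770. The largest differences were in Mcm5 (-0.79 ± 0.41, adjusted p = 0.293), Mcm6 (-0.78 ± 0.35, adjusted p = 0.217) and Cdt1 (-0.68 ± 0.32, adjusted p = 0.239). Dut was the 1 gene of the 22 (4.55%) whose 6 MTA samples, 6.76 to 7.69 (median 7.54), all lay below the controls, by a mean of -0.39 ± 0.18 (adjusted p = 0.220), against 3.58% of all features (4.4% lay above). The 10 mitosis genes had 4 negative and 6 positive values, a median of 0.17 and 0 calls, with Cenpa highest at 0.55 ± 0.47 (adjusted p = 0.552) and Cdk1 lowest at -0.35 ± 0.46 (adjusted p = 0.721). The direction of the mitosis genes turned on single samples: without MTA replicate 4 there were 8 negative and 2 positive values with a median of -0.07, and without MTA replicate 2 there were 0 and 10 with a median of 0.50. The mitosis median was 0.02 without MTA replicate 1, 0.0055 without control replicate 4 and 0.33 without control replicate 3. The replication median was -0.18 without MTA replicate 2.

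Per sample, the replication mean with DSS and MTA was 0.16, -1.45, -0.33, 0.13, -0.50 and -0.26 for replicates 1 to 6 (-0.37 ± 0.59, SD, n = 6). The mitosis mean was 0.94, -1.57, 0.18, 1.17, -0.05 and -0.06 (0.10 ± 0.97, SD, n = 6). Replicates 1 and 4 were above all controls in both classes, and replicate 2 below every other sample of the series in both. The replication minus mitosis difference was below 0 in 5 of 6, with a mean of -0.48 ± 0.41 (SD, n = 6), replicate 2 being the exception at 0.12.

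Other genes of the cycle were read from lists drawn up alongside the members, with earlier results of these data known. Their shares are therefore no independent check on those of the members. Of 34 tested further replication genes, 6 (17.6%) fell with DSS and 0 rose, against 5.89% and 8.68% of all features, with a median of -0.41. Those with the smallest p were Wdhd1, which links helicase and polymerase (-0.70 ± 0.15, adjusted p = 0.00758), Tcf19 (-1.02 ± 0.27, adjusted p = 0.0195), the clamp loader subunit Rfc2 (-0.64 ± 0.18, adjusted p = 0.0273) and the DNA polymerase delta catalytic subunit Pold1 (-0.64 ± 0.18, adjusted p = 0.0289). Of 36 further mitosis genes 0 passed in any comparison, with medians of -0.28 with DSS against control, 0.33 with MTA against DSS and 0.04 with MTA against control. Of the further replication genes 0 passed between MTA and DSS, and Orc3, a subunit of the origin recognition complex, was lower with DSS and MTA than in controls (-0.38 ± 0.10, adjusted p = 0.0427), 1 of 34 (2.94%) against 1.69% of all features.

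Genes that brake the cycle or respond to damage showed no common direction. Of 21 tested inhibitors and exit genes 12 had positive and 9 negative values with DSS, with a median of 0.01, and 3 rose (14.3%) and 0 fell, against 8.68% and 5.89% of all features. The 3 were Plk2, a stress-responsive kinase (1.15 ± 0.22, adjusted p = 0.00313), Gadd45g, a stress-induced inhibitor of growth (1.20 ± 0.24, adjusted p = 0.00494), and Mdm2, the ligase of p53 (0.29 ± 0.08, adjusted p = 0.0185). Gadd45g (0.97 ± 0.24, adjusted p = 0.0342) and Mdm2 (0.35 ± 0.08, adjusted p = 0.0150) were also higher with DSS and MTA than in controls, and 0 of the 21 passed between MTA and DSS. Of 11 entry regulators 1 rose with DSS (9.09%), a share near the 8.68% of all features. It was Fbxw7, which marks cyclin E for breakdown (0.28 ± 0.09, adjusted p = 0.0471), and 0 passed in the other comparisons.

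Markers of other cell types were read as well, beside shares of 8.68% rising and 5.89% falling with DSS over all features. As mean log2 differences from the control mean, the 17 epithelial markers with a probe averaged -0.28 to -0.04 in the DSS samples (mean -0.13 ± 0.10) and -0.14 to 0.18 in controls. Mean and median differed in sign: 10 of the 16 tested had positive values with DSS, with a median of 0.06, and 3 fell (18.8%: Cldn3, Cldn7 and Lgr5). The lowest values were those of the crypt stem cell markers Lgr5 (-1.44 ± 0.26, adjusted p = 0.00251) and Ascl2, which was too dim to be tested and had means of 7.11 in controls and 6.27 with DSS. Smooth muscle markers were 0.02 to 0.93 above the controls' mean (controls -0.27 to 0.22), and 2 of 13 rose (15.4%: Acta2 and Hspb6). Neutrophil markers were 1.07 to 2.30 higher with 6 of 7 called (85.7%), and endothelial markers 0.37 to 0.97 with 8 of 10 (80%). Fibroblast markers were 0.54 to 2.09 higher with 4 of 9 (44.4%: Dcn, Sparc, Pdgfra and Col3a1), and macrophage markers 0.58 to 1.57 with 2 of 11 (18.2%: Clec7a and Chil3). The called markers were named after their values were seen. B cell, T and NK cell and red blood cell markers had DSS means of 0.12, -0.13 and 0.68, with 1 of 7 (14.3%: Bcl6), 0 of 3 and 0 of 1 tested genes called. With MTA the means were 0.02 for epithelial, 0.32 for smooth muscle, 0.87 for neutrophil, 0.48 for macrophage, 0.16 for endothelial, 0.28 for fibroblast, 0.20 for B cell, 0.13 for T and NK cell and 1.0 for red blood cell markers.

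The samples lowest in replication genes were also among those highest in smooth muscle markers, DSS replicate 2 at 0.93 and DSS with MTA replicate 2 at 0.84. DSS replicate 6, equally low in replication genes, stood at 0.28, and DSS with MTA replicate 5, high at 0.80, had a replication mean of -0.50. DSS replicate 2 and DSS with MTA replicate 2 were also the highest of their groups in endothelial markers, at 0.97 and 0.68. The same held in red blood cell markers, at 1.72 and 1.58. DSS replicate 6 stood at 0.37 and 1.21 in these lists. In macrophage and fibroblast markers MTA replicate 2 was the highest of its group (1.63 and 0.98), but DSS replicate 5 was in the DSS group (1.57 and 2.09). With the mean of the smooth muscle markers, or of the epithelial markers, as a covariate, 0 of the 22 replication genes passed for DSS against control. Their median was then -0.44 with 21 of 22 negative, or -0.58 with 22 of 22 negative, and the mitosis median 0.13 or -0.11. These marker means themselves differed between the groups, with DSS means of 0.38 for smooth muscle and -0.13 for epithelial markers. Such fits cannot tell cell types and treatment apart, and the part of these cell types in the falls was not tested.

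The count of 9 depended on single samples. It was 0 without control replicate 3, 1 without control replicate 2, 2 without control replicate 1 or 4, and 1, 2, 3 and 3 without DSS replicates 2, 4, 5 and 6. It was 5 without DSS replicate 1 and 4 without MTA replicate 3, 5 or 6, 10 and 8 without MTA replicates 1 and 4, and 15 and 16 without DSS replicate 3 and MTA replicate 2. Pcna lost its call in 2 of these 16 fits, Rfc4 in 4, Dut in 5, Tyms in 8, Mcm3 in 11, and Mcm5, Cdc6, Cdt1 and Rpa2 in 12 each. The median of the 22 genes stayed between -0.82 and -0.63 in all 16. The mitosis median moved more, to -0.16 without DSS replicate 2, -0.18 without DSS replicate 6, -0.17 without control replicate 3, -0.49 without DSS replicate 3 and -0.46 without control replicate 4, with 0 calls in each.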

How the data were processed

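The values used are the authors' deposited probe intensities for 25697 probes and 16 samples, on a linear scale. They had been normalised between arrays before deposit, by a method not given in the sources used here. Per the labels' protocols, biotin-labelled cRNA was made with an Ambion kit for Illumina arrays. A table of un-normalised signals with detection p-values, deposited by the authors, was not used: its 32 columns carry array positions and were given to no sample, so no slide could serve as a batch. Log2 was taken without a pseudocount. Any background left in the intensities makes the fold changes of dim genes smaller.

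Groups and replicate numbers came from the sample titles. The platform annotation supplied the gene names. Probes in the upper 50% by mean level (12848) were used, and the brightest probe per gene gave 9770 features, 9056 of them named. One two-sided fit of the group means to all 16 arrays was made in limma (version 3.58.1, R version 4.3.3) with lmFit and eBayes. Adjusted p-values are Benjamini-Hochberg values over these 9770 features, called under 0.05, and the SE is limma's moderated one. These steps were tested on simulated data with independent noise for each feature. Such data do not cover genes that move together from sample to sample, as the members did. Class means got no test. In the 8 members measured by more than 1 kept probe, the probes shared their sign for DSS minus control.

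Every member could be named. In the other cell cycle lists up to 4 genes with the smallest p past the threshold were named, and in the cell type marker lists up to 3 genes with the highest mean, while other marker genes were named after their values were seen. The members and lists were chosen with earlier results of these data known. Alternatives covered normalisation, background, filters, probes, covariates, blocks, array weights and left-out samples.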

Additional observations from a re-analysis of the deposited data

Results flagged for a closer look

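In groups of 4 to 6 samples, a highest or lowest sample stood apart from the others, by Dixon's criterion, in 12 of 150 groups examined, and chance gives about 1 in 20. The groups are read on the same 16 samples and are not independent, so the count shows no excess over chance. MTA replicate 2 was the low sample in 5 of them, as log2 intensities: Ccnd1 at 10.65 (next lowest 12.13), Dut at 6.758 (next 7.398), Mcm2 at 7.324 (next 8.594), Mcm6 at 8.422 (next 9.968) and Uhrf1 at 8.327 (next 10.74). Control replicate 4 was low in Cdc45 at 7.355 (next 7.871) and Cdk1 at 8.239 (next 8.759), and control replicate 1 in Rfc4 at 8.902 (next 9.319). Among dim genes, MTA replicate 3 was high in Ccnb2 at 5.774 (next highest 5.638), and MTA replicate 4 in Ube2c at 7.094 (next 6.657). Of the cell type marker means, given as log2 differences from the control mean, T and NK cell markers were high in MTA replicate 3 at 0.9218 (next 0.2029). Fibroblast markers were low in control replicate 1 at -0.4691 (next 0.1121).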

How the results depend on the processing

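Mitosis members gave 0 calls in each comparison, and replication members 0 calls in both comparisons with MTA, under all alternatives run. For DSS against control, the same 9 replication members fell under quantile normalisation, median centring and normexp correction. With the mean of probes the count was also 9, but Rpa2 was lost (-0.48, limma adjusted p = 0.0794) and another member entered. The replicate block left 7 and ended the calls of Mcm5 (adjusted p = 0.0825) and Rpa2 (adjusted p = 0.0571) and of no other member. The number was 3 without a filter, 5 in the upper 25% of probes, 14 with only the 2 groups compared, 4 with the first and last 8 accessions as a block, 0 with smooth muscle markers, 0 with epithelial markers and 16 with array weights. It ran from 0 to 16 when 1 sample was left out. Replication minus mitosis was -0.64 in the upper 25% of probes. For these differences the cause was not tested, except that a stricter filter tests fewer genes.

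Over all features, DSS against control gave 575 lower and 848 higher. These became 351 and 493 in the upper 25%, 235 and 509 with smooth muscle markers, 1297 and 1280 with array weights, and 331 lower with epithelial markers. With 1 sample left out they ran from 262 to 733 lower and 535 to 983 higher. MTA against DSS gave 31 lower and 6 higher. These became 3 and 2 in the upper 25%, 0 and 0 with only the 2 groups compared (826 lower and 635 higher at an unadjusted p under 0.05 in limma with all groups), 226 and 27 with the replicate block, 237 and 46 with smooth muscle markers, 0 and 0 with epithelial markers, 198 and 26 with array weights, and 17 lower with that accession block. With 1 sample left out they ran from 5 to 183 and 0 to 30. MTA against control gave 165 lower and 283 higher, which became 95 lower in the upper 25%, 84 lower with only the 2 groups compared, 276 lower with epithelial markers, and 492 and 596 with array weights. With 1 sample left out they ran from 41 to 329 and 117 to 392.

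The replicate numbers did not pair the samples throughout. Same-numbered samples deviated together, at a correlation over 0.1, in 2 of 4 pairs of DSS and control, 2 of 4 of MTA and control and 3 of 6 of MTA and DSS. Each sample correlated best with its own number in 2 cases per comparison.

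Single members whose sign turned had passed no test. For DSS against control, smooth muscle markers as a covariate gave Rrm2 0.055, Birc5 0.33, Aurka 0.19, Plk1 0.23, Bub1b 0.060, Cdc20 0.40 and Tpx2 0.073, and epithelial markers gave Cdc20 0.064. For MTA against DSS, array weights gave Ccnd1 0.019 and epithelial markers Cdk1 -0.18. For MTA against control, smooth muscle markers gave Tk1 0.074, Fen1 0.13, Rfc5 0.0090, Cdk1 0.10, Top2a 0.27, Bub1b 0.23 and Kif11 0.078. Array weights gave Fen1 0.024, Top2a 0.053 and Bub1b 0.0809, and the replicate block Bub1b 0.0807. With 1 sample left out, DSS against control ran from -0.39 to 0.0017 for Cdc20 and -0.13 to 0.29 for Cenpa, and MTA against DSS from -0.21 to 0.20 for Ccnd1. MTA against control then ran from -0.084 to 0.26 for Mcm7, -0.22 to 0.10 for Fen1, -0.57 to 0.054 for Cdk1, -0.38 to 0.22 for Top2a, -0.011 to 0.67 for Birc5, -0.10 to 0.63 for Plk1, -0.15 to 0.19 for Bub1b, -0.014 to 0.70 for Cdc20, -0.25 to 0.022 for Kif11 and -0.034 to 0.37 for Tpx2.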
